A study of Homo sapiens with 6 samples.

Results

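The genes described here are 36 zinc finger genes of band 19p13.2 on the short arm of chromosome 19, taken as a listed set of symbols and found by Ensembl identifier among 57820 human gene rows. All 36 were found, silent ones included. They form 2 runs in the order of genes along the chromosome: 12 genes from ZNF558 to ZNF846 and 24 genes from ZNF627 to ZNF791. The 6 RNA samples came from HCT116, a long-established line of human colorectal cancer cells: 3 from DKO1, an HCT116 derivative in which the DNA methyltransferase genes DNMT1 and DNMT3B are knocked out, and 3 from the parental line (WT). The medium for both was McCoy's 5A with serum, and the labels name no treatment. DKO1 is 1 derived line, so loss of the 2 genes and any other difference between the lines cannot be told apart. Nothing in the labels says that replicates are separate cultures. Each p-value therefore reflects only how these samples vary, and that variation may be technical.

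Most genes of these runs code for KRAB zinc finger proteins. Tandem C2H2 fingers each read a short stretch of DNA, and the KRAB domain recruits the co-repressor TRIM28 (KAP1), which brings SETDB1 and HP1 proteins to form H3K9-methylated, silent chromatin. The family arose by repeated local duplication, is known for binding transposable elements, and lies largely in clusters on human chromosome 19. DNMT1 maintains DNA methylation when cells replicate their genome, and DNMT3B is a de novo methyltransferase. In the translated GENCODE release 29 transcripts all 36 genes held at least 2 C2H2 finger patterns, with 6 to 19 fingers per gene and a median of 13. A KRAB hallmark pattern was found in 31 of the 36, against 1.51% of 19669 protein-coding genes and 36% of the 784 genes with at least 2 finger patterns.

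The 250 bases upstream of the start sites are shown first, because genes that differed most between the genotypes and genes that did not differ carried the same short words there. RefSeq (GRCh38.p14) gave 37 such promoters for 34 of the 36 genes, and ZNF559 and ZNF763 had no entry. For each run, the 8-base word found in the most genes was sought on both strands. These words were chosen on the promoters themselves, so their counts are a description. In the run from ZNF627 to ZNF791 it was CCAATCAG, which holds the CCAAT box, a common promoter element. It stood in 21 of 23 genes, all but ZNF44 and ZNF799, and on the gene's own strand in 20 of them. The windows of ZNF791 and ZNF490, which start on opposite strands, overlap and hold the same copy (chr19:12610875-12610882), so these 2 genes do not count it independently. Its end lay 23 to 113 bases before the start site, with a median of 56. In the run from ZNF558 to ZNF846 it was CGGAAGTG, which holds the GGAA core read by ETS factors. It stood in 7 of 11 genes, namely ZNF177, ZNF266, ZNF560, ZNF121, ZNF561, ZNF562 and ZNF846, with its end 5 to 48 bases before the start site (median 15). Neither word was found in any promoter of the other run. CCAATCAG was in 56.8% of the 37 member promoters, in 16.1% of 224 promoters of other chromosome 19 ZNF genes and in 3.81% of all 35116 promoters. CGGAAGTG was in 18.9%, 7.14% and 3.15% of the same 3 sets. The first 4 sequences below come from the first run, where ZNF266 and ZNF560 were silent in WT and ZNF121 and ZNF562 were not. The other 6 come from the second run, where ZNF440, ZNF136, ZNF441 and ZNF625 were silent or nearly so in WT and ZNF627 and ZNF823 were not. Each is written 5′ to 3′ on the gene's strand with the word in capitals.
ZNF266 (chr19:9435574-9435823, minus strand): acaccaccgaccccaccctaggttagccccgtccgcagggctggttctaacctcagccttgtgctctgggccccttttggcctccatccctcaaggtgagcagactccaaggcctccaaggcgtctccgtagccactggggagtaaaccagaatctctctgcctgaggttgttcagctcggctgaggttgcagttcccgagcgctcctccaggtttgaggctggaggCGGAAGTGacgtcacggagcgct
ZNF560 (chr19:9498617-9498866, minus strand): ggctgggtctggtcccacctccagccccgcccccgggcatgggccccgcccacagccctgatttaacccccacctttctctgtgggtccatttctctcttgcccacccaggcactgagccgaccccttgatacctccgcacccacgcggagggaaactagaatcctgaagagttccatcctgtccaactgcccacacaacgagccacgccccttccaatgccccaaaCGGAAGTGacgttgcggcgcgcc
ZNF121 (chr19:9584505-9584754, minus strand): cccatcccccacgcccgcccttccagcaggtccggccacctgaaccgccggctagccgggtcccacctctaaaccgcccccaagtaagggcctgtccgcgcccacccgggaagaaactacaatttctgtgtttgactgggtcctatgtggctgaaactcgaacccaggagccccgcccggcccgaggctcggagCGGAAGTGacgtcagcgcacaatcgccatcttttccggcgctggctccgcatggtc
ZNF562 (chr19:9675101-9675350, minus strand): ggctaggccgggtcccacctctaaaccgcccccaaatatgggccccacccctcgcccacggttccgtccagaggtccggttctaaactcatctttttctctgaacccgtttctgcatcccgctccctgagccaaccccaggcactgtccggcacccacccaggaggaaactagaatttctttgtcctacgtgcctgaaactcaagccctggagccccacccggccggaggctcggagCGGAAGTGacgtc
ZNF440 (chr19:11814023-11814272, plus strand): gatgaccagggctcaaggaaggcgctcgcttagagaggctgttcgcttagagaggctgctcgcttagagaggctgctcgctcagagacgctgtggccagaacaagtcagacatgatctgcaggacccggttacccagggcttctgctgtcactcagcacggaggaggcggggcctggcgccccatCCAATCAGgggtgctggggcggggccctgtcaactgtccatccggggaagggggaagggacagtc
ZNF136 (chr19:12162846-12163095, plus strand): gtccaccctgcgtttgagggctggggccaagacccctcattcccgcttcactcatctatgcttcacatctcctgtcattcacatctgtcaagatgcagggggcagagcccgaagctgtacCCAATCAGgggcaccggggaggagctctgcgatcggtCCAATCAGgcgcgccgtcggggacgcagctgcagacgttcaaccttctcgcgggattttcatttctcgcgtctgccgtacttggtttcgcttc
ZNF441 (chr19:11766750-11766999, plus strand): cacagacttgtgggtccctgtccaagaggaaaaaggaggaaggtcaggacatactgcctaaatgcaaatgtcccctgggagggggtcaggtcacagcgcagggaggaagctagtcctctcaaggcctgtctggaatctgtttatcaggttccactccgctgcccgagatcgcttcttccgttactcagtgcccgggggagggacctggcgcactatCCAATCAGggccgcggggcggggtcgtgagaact
ZNF625 (chr19:12156735-12156984, minus strand): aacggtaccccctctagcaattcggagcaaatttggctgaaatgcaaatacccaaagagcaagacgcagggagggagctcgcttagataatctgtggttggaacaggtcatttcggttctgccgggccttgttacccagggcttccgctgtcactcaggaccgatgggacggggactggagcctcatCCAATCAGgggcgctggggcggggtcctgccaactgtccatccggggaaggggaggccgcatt
ZNF627 (chr19:11597233-11597482, plus strand): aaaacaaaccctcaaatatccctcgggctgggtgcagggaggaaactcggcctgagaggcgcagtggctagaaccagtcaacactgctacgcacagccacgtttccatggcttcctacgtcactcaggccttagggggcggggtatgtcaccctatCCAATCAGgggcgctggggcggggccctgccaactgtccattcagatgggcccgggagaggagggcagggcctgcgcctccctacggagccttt
ZNF823 (chr19:11738947-11739196, minus strand): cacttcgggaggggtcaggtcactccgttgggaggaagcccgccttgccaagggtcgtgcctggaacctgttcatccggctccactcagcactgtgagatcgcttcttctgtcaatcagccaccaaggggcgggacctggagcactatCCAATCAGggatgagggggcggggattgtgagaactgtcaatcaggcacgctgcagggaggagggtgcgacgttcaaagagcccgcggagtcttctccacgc

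DNMT1 and DNMT3B checked the labels first. DNMT1 had 31.07, 30.81 and 46.82 TPM in DKO1 replicates 1, 2 and 3, against 244.87, 249.97 and 231.01 TPM in WT replicates 1, 2 and 3. TPM, the unit of the table, is a level per gene length, with an equal sum in every sample. DNMT1 fell 6.68-fold (log2 fold change −2.73, SE 0.17, limma adjusted p = 3.59e-05). DNMT3B had 4.86, 4.85 and 3.56 TPM in DKO1, against 8.22, 7.09 and 6.77 TPM in WT (log2 fold change −0.63, SE 0.17, limma adjusted p = 0.0300), a call that was lost in 4 of the 6 fits without a single sample. DNMT1 itself lies on 19p13.2 between the 2 runs, with 12 protein-coding genes between ZNF846 and DNMT1 and 49 between DNMT1 and ZNF627. Mitochondrially encoded transcripts took 21.2% to 27.7% of the TPM in DKO1 and 19.7% to 20.1% in WT, and 13327 to 14419 genes reached 1 TPM in DKO1 against 12110 to 12465 in WT. Of 10 markers of colorectal epithelium, 6 were at 1 TPM or above in all samples. The markers CDX1, LGR5 and VIL1 stayed at 0.43 TPM or below in every sample, and CDX2 was below 1 TPM in DKO1. CDH1 was called higher in DKO1 (log2 fold change 1.45, adjusted p = 0.000418 by limma). CDX2 was called lower (log2 fold change −0.49, adjusted p = 0.0260 by limma). The summed epithelial markers came to 700.4 to 930.3 TPM in DKO1 and 941.7 to 1178 TPM in WT. Summed fibroblast markers came to 3.35 to 3.70 TPM in DKO1 and 1.18 to 1.85 TPM in WT. Among them COL1A2 averaged 1.25 TPM in DKO1 and 0.017 TPM in WT, while COL3A1 and LUM had lower means in DKO1. Summed blood markers came to 1.28 to 2.20 TPM in DKO1 and 0.18 to 0.74 TPM in WT, with HBB at 0 throughout. The part of these differences in the results below was not tested.

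More of the 36 genes were expressed in DKO1 than in WT. Of the 36, 24, 26 and 26 reached 1 TPM in DKO1 replicates 1, 2 and 3, against 16 in each WT replicate. The median level over the 36 genes was 4.06, 5.12 and 5.29 TPM in DKO1 and 0.26, 0.35 and 0.355 TPM in WT. All 36 had a value above 0 in every DKO1 sample, while 23, 23 and 26 did in WT. A gene was tested if 3 or more samples reached 1 TPM, which held for 24 of the 36. Of these 24, 10 rose, 2 fell and 12 were not called at an adjusted p below 0.05, where 18.8% of all 13604 tested genes rose and 9.60% fell. The median log2 fold change was 0.45 over the 24 genes and 0.07 over all tested genes. A gene that was silent in WT could pass the filter only through DKO1, so this count leans to rises. Over all 36 genes, every DKO1 value lay above every WT value in 25 and below in 4, against 13.3% and 4.73% of all human rows, or 26.0% and 9.28% of the rows not at 0 in all samples. Without the filter 20 of 36 rose and 2 fell, where 14.9% of 29487 genes rose and 3.72% fell. In bulk RNA a change in the share of cells that express a gene and a change per cell cannot be told apart.

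**Figure D1:**
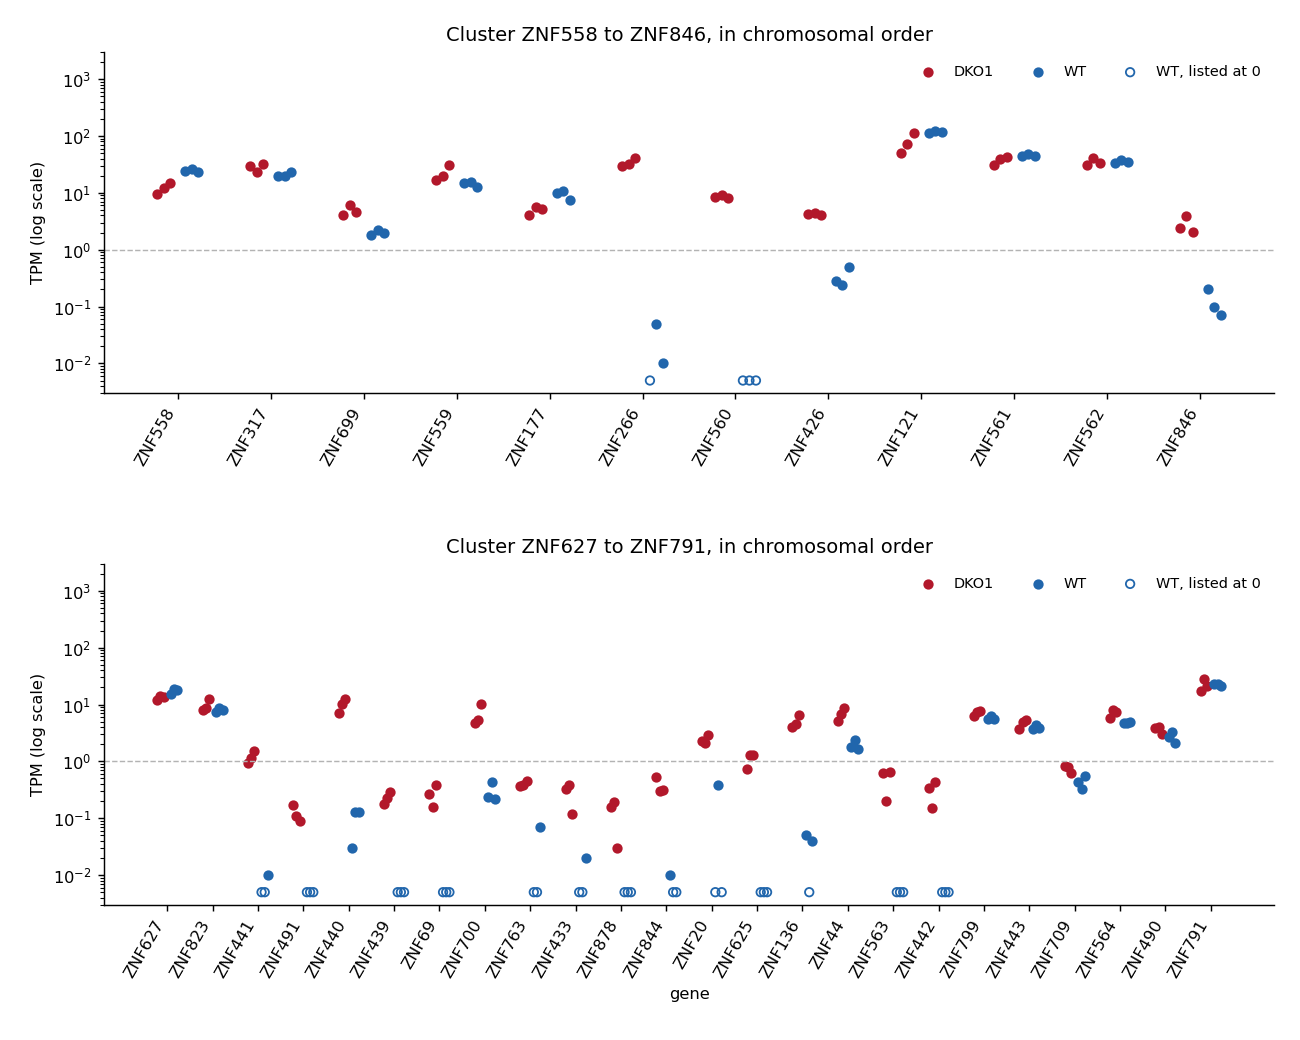
TPM of each of the 36 genes in the 3 DKO1 samples (red) and the 3 WT samples (blue), on a log axis, with genes in chromosomal order in each run. Open circles are WT values listed at 0, drawn at the foot of the axis, and the dashed line marks 1 TPM. All 36 genes are above 0 in DKO1, and 8 are at 0 in all 3 WT samples.

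In the run from ZNF558 to ZNF846 all 12 genes were tested, of which 5 rose, 2 fell and 5 were not called. Of all tested genes 18.8% rose and 9.60% fell. Of the 12, the 4 not at 1 TPM in all WT samples all rose, and 1 of the 8 at that level did. ZNF266 showed the largest log2 fold change of the tested genes among the 36. It had 29.38, 32.80 and 41.79 TPM in DKO1, against 0.00, 0.05 and 0.01 TPM in WT (log2 fold change 5.11, SE 0.17, adjusted p = 5.25e-06 by limma). Its neighbour ZNF560 had 8.50, 8.99 and 8.16 TPM in DKO1 and was listed at 0 in all 3 WT samples (log2 fold change 3.25, SE 0.13, adjusted p = 7.84e-06 by limma). Both genes were thus silent or nearly silent in every WT sample and well expressed in every DKO1 sample, with no overlap. ZNF426, known as a KRAB protein that represses the lytic switch protein of Kaposi sarcoma herpesvirus, comes next along the chromosome. It had 4.19, 4.35 and 4.05 TPM in DKO1, against 0.28, 0.24 and 0.49 TPM in WT (log2 fold change 1.96, SE 0.14, adjusted p = 6.41e-05 by limma). ZNF846, at the end of the run, had 2.40, 3.94 and 2.01 TPM in DKO1, against 0.20, 0.10 and 0.07 TPM in WT (log2 fold change 1.72, SE 0.20, adjusted p = 0.000667 by limma). These 2 were low but above 0 in every WT sample, and all their DKO1 values were higher. ZNF699, the human relative of the Drosophila gene hangover, which affects ethanol tolerance in flies, was already expressed in WT. It had 4.06, 6.18 and 4.66 TPM in DKO1, against 1.79, 2.18 and 1.98 TPM in WT, a 2.5-fold rise (log2 fold change 0.99, SE 0.18, adjusted p = 0.00566 by limma). Its groups did not overlap, and its call was lost under quantile normalization (adjusted p = 0.0806 by limma).

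The 2 genes that fell lie in the same run. ZNF558, known in the developing human brain as a repressor of the mitophagy gene SPATA18, had 9.65, 11.95 and 14.90 TPM in DKO1, against 23.97, 26.43 and 23.20 TPM in WT. It fell to a level 2.02-fold lower than in WT, with a log2 fold change of −0.97 (SE 0.17, adjusted p = 0.00549 by limma). ZNF177 had 4.06, 5.64 and 5.15 TPM in DKO1, against 9.74, 10.92 and 7.59 TPM in WT. That was 1.90-fold lower, with a log2 fold change of −0.80 (SE 0.19, adjusted p = 0.0176 by limma). In both genes every DKO1 value lay below every WT value. The ZNF177 call was lost without WT replicate 1 (adjusted p = 0.0678 by limma), WT replicate 2 (0.0780) or DKO1 replicate 1 (0.0578). ZNF177 also shares exons with the read-through gene ZNF559-ZNF177, so the split of reads between them is uncertain. The read-through gene was at 0.60, 0.28 and 1.46 TPM in DKO1 and 2.36, 1.15 and 2.20 TPM in WT (adjusted p = 0.0921 by limma). It also overlaps ZNF559 on the same strand, so the level of ZNF559 is uncertain too.

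The 3 genes with the highest levels of the 36 stand side by side in this run. ZNF121, known as a partner of the transcription factor MYC, had 50.25, 73.10 and 113.09 TPM in DKO1, against 113.08, 122.30 and 116.24 TPM in WT. The highest DKO1 value was level with the lowest WT value, and the other DKO1 values lay far below. The log2 fold change of ZNF121 was −0.64 (SE 0.26, adjusted p = 0.111 by limma). It was called lower without DKO1 replicate 3 (log2 fold change −0.94, adjusted p = 0.00725 by limma), with the replicate number as a block (0.0489) and when samples were scaled by median ratios (0.0293). ZNF561 had 30.99, 39.27 and 41.99 TPM in DKO1, against 45.04, 48.00 and 43.69 TPM in WT (log2 fold change −0.29, adjusted p = 0.173 by limma). Its DKO1 values all lay below the WT values, by an amount that did not pass. ZNF562 had 31.32, 41.67 and 33.77 TPM in DKO1, against 33.36, 38.45 and 34.37 TPM in WT, with overlapping groups and a log2 fold change of 0.00 (SE 0.14). The remaining pair, ZNF317 and ZNF559, averaged 28.4 ± 4.55 and 22.5 ± 7.23 TPM in DKO1, against 20.9 ± 1.88 and 14.3 ± 1.48 TPM in WT (SD, n = 3 each). Their DKO1 values all lay above the WT values, yet neither passed (adjusted p = 0.0863 and 0.0910 by limma). ZNF317 passed with the replicate number as a block (adjusted p = 0.0410 by limma).

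In the run from ZNF627 to ZNF791, 12 of the 24 genes were tested, of which 5 rose and 0 fell by limma. Of all tested genes 18.8% rose and 9.60% fell. Of the 12, the 4 not at 1 TPM in all WT samples all rose, and 1 of the 8 at that level did. At an unadjusted p below 0.05, 6 of the 12 were higher and 1 was lower, against 25.1% and 15.5% of all tested genes. ZNF440 had 7.22, 10.17 and 12.75 TPM in DKO1, against 0.03, 0.13 and 0.13 TPM in WT (log2 fold change 3.30, SE 0.21, adjusted p = 3.62e-05 by limma). ZNF136 had 3.99, 4.51 and 6.65 TPM in DKO1, against 0.05, 0.00 and 0.04 TPM in WT (log2 fold change 2.53, SE 0.19, adjusted p = 7.22e-05 by limma). ZNF700 had 4.70, 5.37 and 10.14 TPM in DKO1, against 0.24, 0.43 and 0.22 TPM in WT (log2 fold change 2.52, SE 0.26, adjusted p = 0.000366 by limma). These 3 genes were all close to silent in WT, and their lowest DKO1 values were far above their highest WT values. ZNF20 had 2.27, 2.10 and 2.90 TPM in DKO1, against 0.00, 0.38 and 0.00 TPM in WT (log2 fold change 1.61, SE 0.18, adjusted p = 0.000525 by limma). It shares exons with the read-through gene ZNF625-ZNF20, which also overlaps ZNF625 on the same strand. The levels of ZNF20 and ZNF625 are therefore uncertain. ZNF44 was expressed in both genotypes, with 5.04, 6.71 and 8.80 TPM in DKO1, against 1.82, 2.34 and 1.67 TPM in WT. That was a 3.52-fold rise without overlap (log2 fold change 1.39, SE 0.21, adjusted p = 0.00259 by limma).

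**Figure D2:**
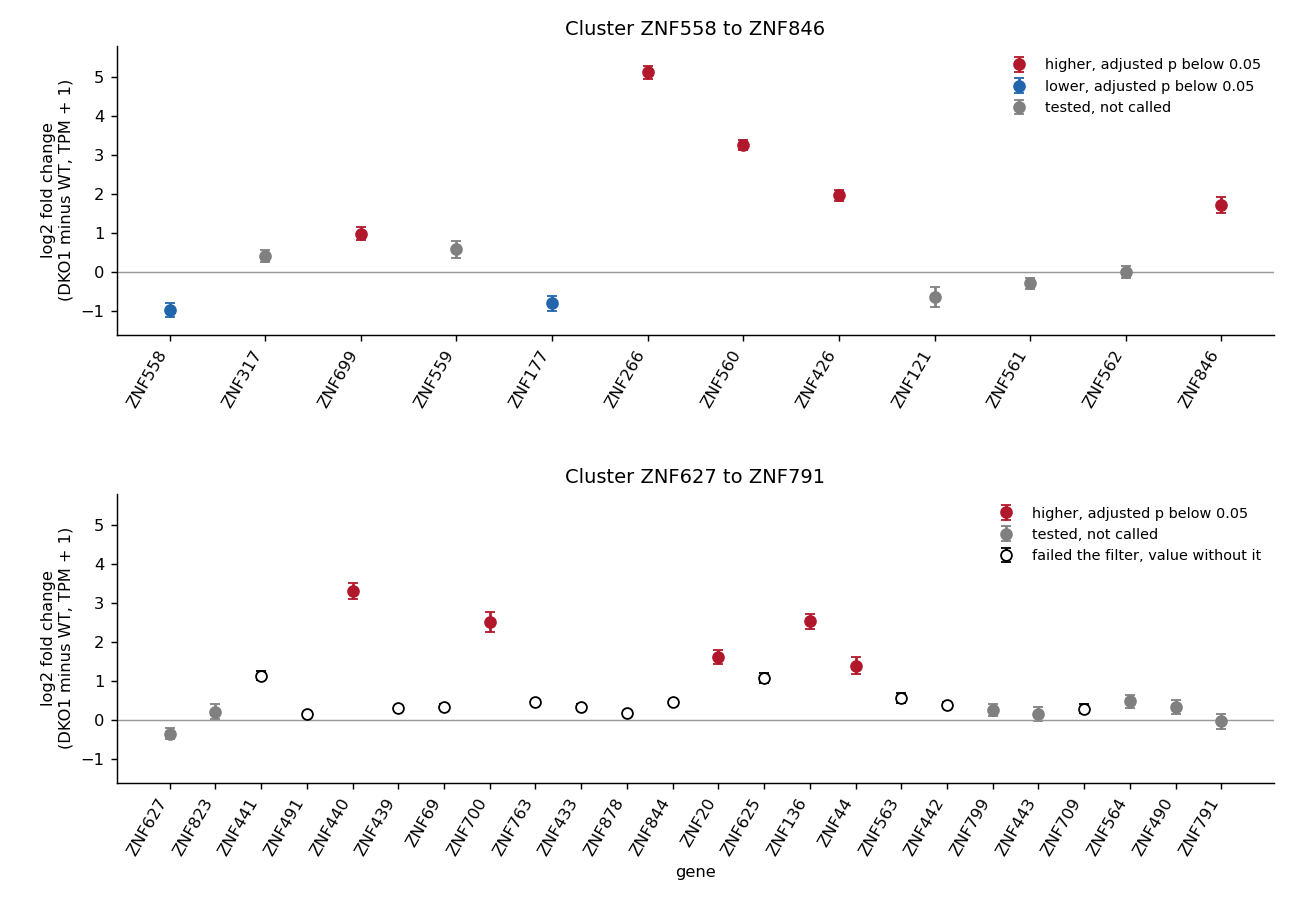
Log2 fold change (DKO1 minus WT, log2 of TPM + 1) of each gene with its SE from limma, in chromosomal order. Red genes rose, blue genes fell, grey genes were tested and not called, and open circles are the 12 genes that failed the filter, with the value from the fit without it. ZNF266 has the largest value, 5.11, and ZNF558 the lowest, −0.97.

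The 12 genes that failed the filter all lie in the run from ZNF627 to ZNF791 and all stayed low in both genotypes. The highest single value among them was 1.54 TPM, in ZNF441. Their DKO1 means ranged from 0.123 TPM in ZNF491 to 1.21 TPM in ZNF441, and the highest WT mean was 0.437 TPM, in ZNF709. Within these low levels, every DKO1 value lay above every WT value in all 12. That held for 29.3% of the 17906 human genes neither at 1 TPM in all WT samples nor at 0 throughout. All of the 12 but ZNF709 were below 0.1 TPM in all WT samples, which favours that direction. Of the genes whose promoters are shown above, ZNF441 had 0.94, 1.16 and 1.54 TPM in DKO1, against 0.00, 0.00 and 0.01 TPM in WT, and ZNF625 had 0.73, 1.32 and 1.31 TPM in DKO1 and was listed at 0 in WT. The others were ZNF439, ZNF69, ZNF763, ZNF433, ZNF878, ZNF844, ZNF563 and ZNF442. In the fit without a filter 10 of the 12 rose, where 14.9% of 29487 genes did. ZNF878 (adjusted p = 0.0943 by limma) and ZNF709 (0.136) were not called in it. TPM keeps no depth, so how many reads stand behind these low values is unknown.

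A stretch of 13 neighbours, from ZNF441 to ZNF136, was silent or nearly silent in WT without a gap. It was singled out after its values were seen. The highest WT value in it was 0.43 TPM, in ZNF700, and the summed level was 21.8, 26.4 and 37.0 TPM in DKO1, against 0.33, 0.94 and 0.49 TPM in WT. In all 13 genes every DKO1 value lay above every WT value. That held for 29.3% of the 17906 human genes neither at 1 TPM in all WT samples nor at 0 throughout. Choosing a stretch for low WT values favours that direction, so the count is a description. The levels reached in DKO1 were unequal, with means from 0.123 TPM in ZNF491 to 10.0 TPM in its neighbour ZNF440. The 4 genes of the stretch that passed the filter (ZNF440, ZNF700, ZNF20 and ZNF136) were called higher, but with WT values this low a gene could pass it only through its DKO1 values, so that direction was fixed by the choice. Genes expressed in WT stand at both ends of the run. ZNF627 had 13.4 ± 1.19 TPM in DKO1 and 17.3 ± 1.97 TPM in WT, and ZNF823 had 9.65 ± 2.40 TPM in DKO1 and 8.03 ± 0.68 TPM in WT (SD, n = 3 each). At the other end, ZNF791 had 22.3 ± 5.65 TPM in DKO1 and 22.4 ± 0.81 TPM in WT. ZNF490 had 3.64 ± 0.52 TPM in DKO1 and 2.71 ± 0.61 TPM in WT. ZNF564, ZNF799 and ZNF443 had 7.10 ± 1.23, 7.08 ± 0.80 and 4.66 ± 0.90 TPM in DKO1, against 4.77 ± 0.11, 5.76 ± 0.39 and 4.03 ± 0.34 TPM in WT. None of these 7 genes passed, with adjusted p from 0.0693 for ZNF564 to 0.915 for ZNF791 by limma, and ZNF564 passed in 2 of its 15 alternative fits. ZNF443, a gene linked to apoptosis, and ZNF799 share 805 words of 50 bases, 31.1% and 24.1% of their transcript words, so the split of reads between them is uncertain. ZNF490 and ZNF791 overlap on opposite strands, and whether counting used the strand is not given in the sources used here.

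The genes were next grouped by their level in WT. Of the 36 genes, 16 were at 1 TPM or above in all WT samples, 14 were below 0.1 TPM in all of them, and 6 lay between. Among the 16 expressed in WT, 2 rose (ZNF699 and ZNF44), 2 fell and 12 were not called, with a median log2 fold change of 0.19. Of the 11581 tested genes at 1 TPM or above in all WT samples, 11.8% rose and 11.3% fell. Every DKO1 value lay above every WT value in 5 of the 16 and below in 4, against 20.9% of those 11581 genes in each direction, and the groups overlapped in 7. Among the other 20, every DKO1 value lay above every WT value in all 20, against 29.3% of the 17906 human genes that were neither at 1 TPM in all WT samples nor at 0 throughout. Choosing genes for low WT values favours that direction, so it is given as a description. ZNF266, ZNF560 and ZNF136 were the 3 genes below 0.1 TPM in all WT samples and at 1 TPM or above in all DKO1 samples. This pattern was shown by 401 of all 57820 human rows (0.694%), many of which were at 0 throughout. Of the other ZNF genes of chromosome 19, 39 of 203 showed it, as did 15 of 231 ZNF genes on other chromosomes. The converse pattern was shown by 0 of the 36 genes and by 3 human genes (0.00519%).

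The summed level of all 36 genes differed by less than the DKO1 samples differed among themselves. It was 306.9, 380.8 and 450.9 TPM in DKO1 and 326.6, 356.5 and 329.9 TPM in WT, or 379.5 ± 72.0 and 337.7 ± 16.4 TPM (SD, n = 3 each). The 16 genes expressed in WT summed to 238.8, 303.1 and 356.2 TPM in DKO1 and 325.3, 354.8 and 328.3 TPM in WT, so most of the zinc finger RNA from these genes came from the same 16 in both genotypes. The 14 genes silent in WT summed to 46.5, 50.9 and 62.2 TPM in DKO1, against 0.06, 0.05 and 0.15 TPM in WT, and ZNF266 and ZNF560 alone gave 37.88, 41.79 and 49.95 TPM of that in DKO1. By run, the genes from ZNF558 to ZNF846 summed to 221.3, 270.9 and 332.6 TPM in DKO1 and 262.4, 283.6 and 263.2 TPM in WT, with overlap. The genes from ZNF627 to ZNF791 summed to 85.6, 109.9 and 118.3 TPM in DKO1, all above the 64.2, 72.9 and 66.7 TPM in WT.

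**Figure D3:**
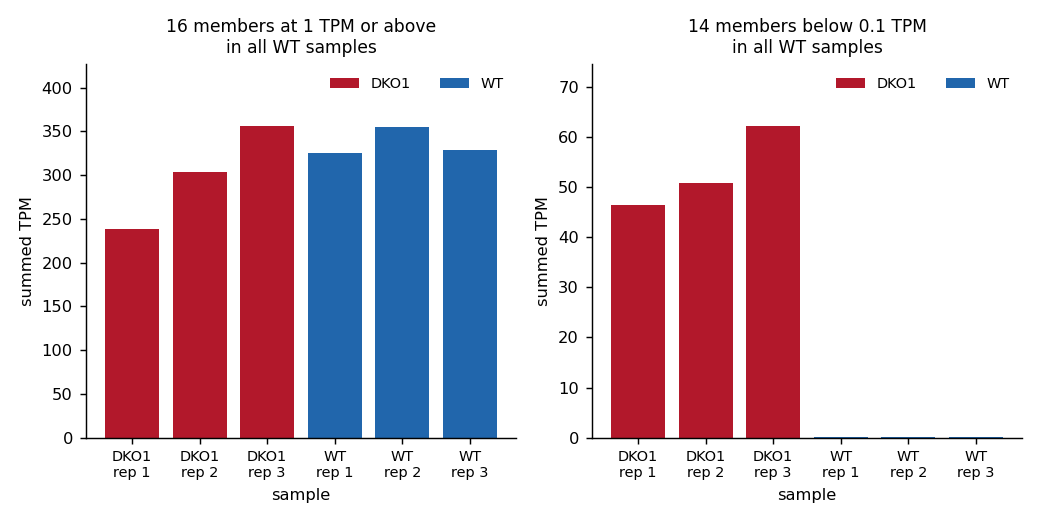
Summed TPM per sample of the 16 genes at 1 TPM or above in all WT samples (left) and of the 14 genes below 0.1 TPM in all WT samples (right), with the 3 DKO1 samples in red and the 3 WT samples in blue. The scales differ: the left sums run from 238.8 to 356.2 TPM, and the right sums reach 62.2 TPM in DKO1 and at most 0.15 TPM in WT.

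Silent and expressed genes overlapped in their promoter CpG numbers. In the 250 bases upstream, the 13 silent genes with an entry had a median of 12 CpG dinucleotides (range 7 to 18), and the 15 expressed genes a median of 15 (range 8 to 26). Where a gene had several starts, the one with the most CpG was taken. Over 34 genes, CpG number against the log2 WT level had a Pearson r of 0.386 and a Spearman rho of 0.433, and against the log2 fold change without a filter an r of −0.182 and a rho of −0.155. These are descriptions over neighbouring genes that share ancestry and libraries. The word CCAATCAG stood in 11 of 13 silent genes, 4 of 6 between and 6 of 15 expressed genes. Within the run from ZNF627 to ZNF791, the only one that held it, it stood in all 11 silent genes and all 4 between with an entry and in 6 of 8 expressed genes, so that both genes without it, ZNF44 and ZNF799, were expressed in WT. It stood in the promoters of ZNF627, ZNF823, ZNF443, ZNF564, ZNF490 and ZNF791, which were expressed in WT, as in those of ZNF440 and ZNF136. CGGAAGTG stood in 2 of 13 silent genes (ZNF266 and ZNF560) and in 4 of 15 expressed genes (ZNF177, ZNF121, ZNF561 and ZNF562). Of 4 shorter motifs sought on both strands, CCAAT lies wholly within CCAATCAG. That word alone put it in 21 of the 27 member promoters that held it, so its count is mostly no separate observation. CCAAT was in 73.0% of the member promoters, 42.4% of other chromosome 19 ZNF promoters and 32.0% of all promoters. TATAAA was in 0%, 3.1% and 10.7%, CCGGAA in 21.6%, 38.8% and 14.5%, and TGCGCA in 8.11%, 17.4% and 6.89% of the same sets. A match or its absence in this window says nothing of binding or methylation, which were not measured in these files.

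**Figure D4:**
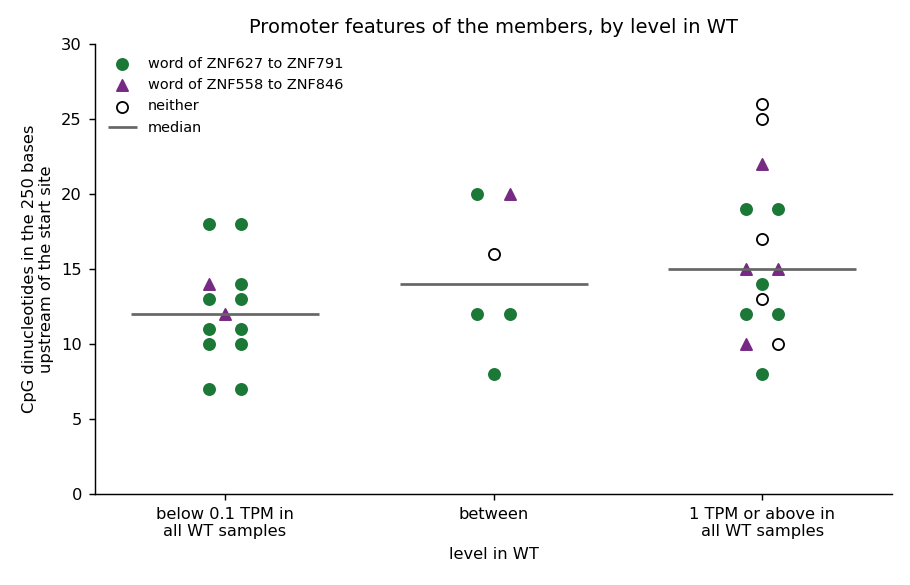
CpG dinucleotides in the 250 bases upstream of the start site of 34 of the genes, by their level in the 3 WT samples. Green circles hold the word CCAATCAG, purple triangles hold CGGAAGTG, open circles hold neither, and lines are medians, which are 12, 14 and 15 from left to right.

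Other zinc finger genes of chromosome 19 were also called higher more often than lower. Of 203 other ZNF genes of that chromosome 142 were tested, of which 68 rose and 10 fell, a share of 47.9% higher against 41.7% for the 19p13.2 genes, with a median log2 fold change of 0.39. Of 231 ZNF genes on other chromosomes 185 were tested, of which 30 rose and 23 fell, with a median of −0.02. Genes low in WT passed the filter mainly through DKO1, so these shares lean to rises. Tested genes not at 1 TPM in all WT samples numbered 57 on the rest of chromosome 19, of which 53 rose. On 19p13.2 they numbered 8, of which 8 rose, and on other chromosomes 26, of which 21 rose. Over all human genes they numbered 2023, of which 1191 rose. In WT 43.8% of the other chromosome 19 ZNF genes were below 0.1 TPM in all samples, close to the 38.9% (14 of 36) of the 19p13.2 genes, against 17.7% of the ZNF genes elsewhere. Among the ZNF genes expressed in WT on the rest of chromosome 19, 15 of 85 rose and 10 fell, beside 2 of 16 and 2 of 16 on 19p13.2. The differences between these lists were not tested.

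**Figure D5:**
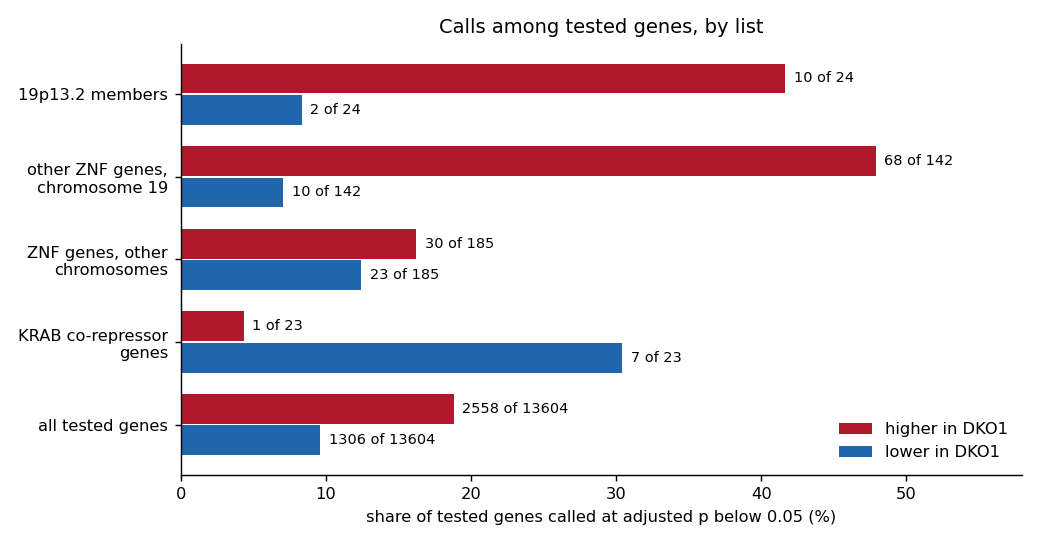
Share of tested genes called higher (red) or lower (blue) in DKO1 at an adjusted p below 0.05, in percent, for the 19p13.2 genes, other ZNF genes of chromosome 19, ZNF genes of other chromosomes, KRAB co-repressor genes and all tested genes. Bars carry the counts, such as 10 of 24 higher for the 19p13.2 genes and 2558 of 13604 for all genes. Genes low in WT passed the filter mainly through DKO1, so shares of lists rich in such genes lean to rises.

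Among the partners through which KRAB zinc finger proteins act, more genes were called lower than higher. Of 24 listed co-repressor and effector genes 23 were found and tested, of which 1 rose and 7 fell. All 23 were at 1 TPM or above in all WT samples. Of the 11581 tested genes at that level, 11.8% rose and 11.3% fell. TRIM28, the KRAB co-repressor itself, had 116.38, 45.77 and 147.61 TPM in DKO1, against 147.98, 80.88 and 134.20 TPM in WT, with a wide spread in both genotypes, and was not called (adjusted p = 0.606 by limma). SETDB1, the H3K9 methyltransferase it recruits, was at 31.6 ± 2.76 TPM in DKO1 and 33.5 ± 5.36 TPM in WT and was not called (adjusted p = 0.763 by limma). The gene that rose was ZNF274, a KRAB protein that brings SETDB1 to the ends of zinc finger genes, with 20.98, 16.71 and 25.26 TPM in DKO1, against 7.94, 6.60 and 7.15 TPM in WT (log2 fold change 1.40, SE 0.18, adjusted p = 0.00106 by limma). The largest falls were in ATRX, a chromatin remodeller, SMARCAD1, a remodeller that binds TRIM28, and TASOR, a HUSH complex subunit, with log2 fold changes of −1.01, −0.91 and −0.90 (adjusted p = 0.0344, 0.0269 and 0.0261 by limma). The number of lower genes was 0 without WT replicate 2 or 3, and 1 without WT replicate 1. It was 3, 4 and 8 without DKO1 replicates 1, 2 and 3, and 4 without a filter. Over all tested genes 1306 fell in the main fit, and 604, 524 and 550 without WT replicates 1, 2 and 3.

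Between the outer genes of the first run, protein-coding genes of other families stayed at 0.05 TPM or below in both genotypes. In the reference order, 9 protein-coding genes that are no zinc finger genes lie between ZNF558 and ZNF846: MBD3L1, the mucin gene MUC16 and 7 olfactory receptor genes. None reached the filter, 6 were at 0 in all samples, and the highest value was 0.05 TPM, in MBD3L1 in a DKO1 sample. In that order none lies between ZNF627 and ZNF791, but ACP5, an acid phosphatase gene, overlaps ZNF627 on the opposite strand and had 0.41, 1.17 and 0.11 TPM in DKO1, against 0 in all 3 WT samples. Transcripts that overlap the zinc finger genes did differ. ZNF433-AS1, a noncoding RNA opposite ZNF433 and ZNF878, had 4.92, 3.54 and 5.18 TPM in DKO1 and was listed at 0 in WT (log2 fold change 2.46, SE 0.16, adjusted p = 4.24e-05 by limma), more than either of those genes in DKO1. The read-through gene ZNF625-ZNF20 had 2.34, 2.28 and 1.44 TPM in DKO1, against 0.02, 0.00 and 0.00 TPM in WT (log2 fold change 1.57, SE 0.16, adjusted p = 0.000327 by limma). ZNF561-AS1, opposite ZNF561 and ZNF562, had 6.21, 6.76 and 5.20 TPM in DKO1, against 4.99, 6.29 and 7.38 TPM in WT, with overlap. Reads of overlapping genes may not have been told apart.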

How the data were processed

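RNA-seq of 3 DKO1 and 3 WT samples was analysed from the authors' deposited table of TPM per gene, rounded to 2 decimals. Per the labels' protocols, RNA was extracted with TRIzol and libraries were made with a stranded Illumina mRNA kit. The submitters' processing notes name RSEM 1.2.21, STAR 2.5.3a, edgeR 3.12.1, FastQC and Trim Galore 0.4.0 beside the builds GRCh37 and hg19, with no roles. Neither the annotation release nor the use of strand is stated in the sources used here. TPM keeps no depth, so no counting interval is given. Of 57897 rows, 77 spike-in rows were left out. Symbols matched 51996 of 57820 human rows (89.9%).

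From these values limma 3.58.1 (R 4.3.3) compared log2(TPM + 1) by genotype alone, with its variance trend, in genes where 3 or more samples reached 1 TPM. Benjamini-Hochberg adjustment ran over the 13604 such genes, and the threshold was 0.05. Such fold changes understate those of low genes. The fit was checked on simulated data. Gene order came from RefSeq GRCh38.p14, so no gene coordinates are given, and promoters are those of that build. Values in every sample are given for all called members, for those silent in WT and expressed in DKO1, and for the 3 with the highest mean. No ratio is given where a mean was below 0.5 TPM. The members and lists were chosen with earlier results of these data known. Same-numbered samples deviated together from their group means (correlations of 0.35, 0.572 and 0.267 for numbers 1, 2 and 3). The labels do not state that the numbers pair samples. The main fit did not use the number, so its p-values ignore any such pairing. A fit with the number as a block was an alternative. Others were the pseudocount, the filter, the scaling, the variance trend and leaving out each sample.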

Additional observations from a re-analysis of the deposited data

How the results depend on the processing

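Among the alternative fits of single genes, 327 kept the direction and side of the threshold, 4 lost a call, 9 gained one and 10 changed sign, all of them in genes called under neither setting. ZNF562, at 0.00, was −0.0 with a pseudocount of 0.1, −0.143 with median ratios and ran from −0.116 to 0.084 without single samples. ZNF799, ZNF443 and ZNF490 were −0.026, −0.174 and −0.035 after quantile normalization. ZNF791 was 0.075 after rescaling without mitochondrial genes or spike-ins and ran from −0.216 to 0.123 without single samples, above 0 without DKO1 replicate 1. With the replicate block 11 genes rose and 3 fell, with ZNF317 and ZNF121 gained and no other call among the 24 changed. Without a filter 20 of 36 rose, and above a mean of 5 TPM 2 of 14 did. Leaving out single samples gave 10 to 11 rises and 1 to 3 falls. The median log2 fold change of the 24 genes was 0.109 above a mean of 5 TPM, 0.314 with median ratios and 0.289 after quantile normalization, where all tested genes had medians of −0.055 and −0.066 (−0.016 above a mean of 5 TPM). These scalings moved the calls of all genes from 66.2% higher (2558 and 1306) to 49.8% (2080 and 2094) and 48.4% (1817 and 1939), while the 24 genes had 10 and 3 and 9 and 2 calls. After rescaling without mitochondrial genes or spike-ins, 13 rose and 2 fell, the summed level was 518.4 TPM in DKO1 and 428.7 TPM in WT, and DNMT3B was not called (−0.555). Under median-ratio scaling the sum was 359.1 TPM in DKO1 and 355.9 TPM in WT. Members below 0.1 TPM in WT but expressed in DKO1 numbered 1 where WT had to be exactly 0, 8 with a limit of 0.5 TPM, and 3 to 5 without single samples (5 without DKO1 replicate 1). Without single samples the log2 fold change of DNMT3B ran from −0.691 to −0.51 (from −0.691 to −0.558 where its call was lost), and lower co-repressor genes numbered 0 to 8, with 4 without a filter. For other chromosome 19 ZNF genes, 18 rose and 5 fell above a mean of 5 TPM, 18 fell under quantile normalization, and 4 to 18 fell without single samples. The cause of these shifts was not tested. Depth behind the low values is unknown.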

Other observations

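The zinc finger pseudogenes inside the 2 runs were low in both genotypes. ZNF812P had 0.61, 1.02 and 0.84 TPM in DKO1, against 0.00, 0.00 and 0.06 TPM in WT, without overlap. ZNF788P had 0.00, 0.44 and 0.40 TPM in DKO1 and was listed at 0 in WT, and ZNF833P was listed at 0 in all 6 samples. ZNF439, ZNF440, ZNF69 and ZNF763, which lie near each other, share 6.02%, 5.82%, 7.58% and 5.12% of their 50-base transcript words with other members. For each of them the member with the most shared words was ZNF440 or ZNF69. Their DKO1 means were 0.233, 10.0, 0.270 and 0.403 TPM.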
